A study of Mus musculus with 29 samples.

Results

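Lung DNA methylation was compared between 7 PM and 7 Sham offspring that had not been challenged with ovalbumin (OVA), the egg protein used elsewhere in the study to induce allergic airways disease (AAD). The comparison used windows along chromosomes 1 to 19 with a value in all 14 libraries, which were 250403 of the 260686 windows in the table. The animals were BALB/c mice, given as females aged 13 weeks. The dams of PM offspring received fine airborne particulate matter (PM2.5) by the intranasal route before mating, through gestation and until weaning, whereas the dams of Sham offspring received saline on the same schedule. The offspring themselves were never given PM2.5, and both groups inhaled nebulised saline in place of OVA. Lungs were taken after lung function testing, the day after the final nebulisation, and DNA came from a homogenate of the right lower lobe, which mixes all cell types of the tissue. The labels do not give the dam of each library. Littermates may therefore share a group, and each p-value measures only the spread between these libraries. The methylomes of 15 further libraries, 8 PM-OVA and 7 Sham-OVA, share no library with the 14. They were used to look at the same measures again, to compare both contrasts, and in 1 alternative fit of all 29 libraries.

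DNA methylation (DNAm) in mammals is found mainly on the cytosine of CG dinucleotides (CpGs), where it is placed and maintained by DNA methyltransferases and removed with the help of TET enzymes. Most of the genome is heavily methylated in adult tissue, whereas CpG-rich promoters and active enhancers are usually depleted of it. Particulate matter carries polycyclic aromatic hydrocarbons that act through the aryl hydrocarbon receptor, together with metals and oxidants that engage the Nrf2 antioxidant response, and methylation patterns laid down in early life can be kept through cell division. In inbred mice a few loci, many of them at repeats, take a different methylation level in each animal.

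Windows were made by the authors from 100 neighbouring CpG cytosines, so their length depends on CpG density. The median member window was 4714 bp long (213 to 320320 bp) and held 50 CpG dinucleotides in the reference, each with a cytosine on both strands. Of all members 95.9% held 48 to 51 dinucleotides, and 64.2% of windows overlapped an annotated exon. Windows were named by the authors for 1 gene each, giving 36013 genes, of which 18289 had at least 3 windows. Values are the percentage of methylation (%DNAm) of a window, and differences are PM minus Sham in percentage points.

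The sequences below belong to the loci on which the account turns. They are stretches of the GRCm38 plus strand, written 5′ to 3′, without annotated exon or, in the windows, repeat sequence. Stretches are shown for 3 of the 10 windows of smallest p described later, the first 2 and the only one lower in PM. These are Rpa2 (chr4:132770886-132771005), Grip1 (chr10:120074558-120074677) and Stim1 (chr7:102267708-102267797), where capitals mark the CpGs of the reference. Values are given per window, so the methylation of a single marked CpG is not known here.
Rpa2: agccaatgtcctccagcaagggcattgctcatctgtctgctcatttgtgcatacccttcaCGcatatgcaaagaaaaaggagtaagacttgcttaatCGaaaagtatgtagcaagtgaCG
Grip1: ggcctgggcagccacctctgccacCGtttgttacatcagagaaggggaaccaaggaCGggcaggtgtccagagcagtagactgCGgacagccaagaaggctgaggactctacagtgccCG
Stim1: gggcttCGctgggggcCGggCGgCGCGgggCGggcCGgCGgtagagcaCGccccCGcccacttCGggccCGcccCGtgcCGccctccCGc
The Rpa2 and Grip1 windows held 1.52 and 1.99 CpGs per 100 bp, whereas the Stim1 window, which starts upstream of the gene, held 10.1. For Cyp1a1, a target of the aryl hydrocarbon receptor, a stretch of the window before its downstream start (chr9:57696187-57696366) and the RefSeq promoter of that start (GRCm38.p6, chr9:57697363-57697612) are given. Here capitals mark the core of the receptor's response element, GCGTG or, on the other strand, CACGC.
Cyp1a1 upstream: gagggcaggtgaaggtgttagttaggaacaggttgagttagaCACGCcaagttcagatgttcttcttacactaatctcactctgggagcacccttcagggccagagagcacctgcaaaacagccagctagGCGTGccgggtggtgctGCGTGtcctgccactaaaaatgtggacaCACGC
Cyp1a1 promoter: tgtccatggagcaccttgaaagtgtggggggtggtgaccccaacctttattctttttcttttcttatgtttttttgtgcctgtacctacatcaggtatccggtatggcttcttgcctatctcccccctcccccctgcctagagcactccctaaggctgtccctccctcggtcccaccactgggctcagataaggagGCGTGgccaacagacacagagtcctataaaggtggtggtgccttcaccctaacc
The core occurred 4 times in the upstream stretch and 1 time in the promoter, and 28.2% of 32851 RefSeq promoters of this length held at least 1. A match describes the letters only.

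Between 258952 and 260135 windows had a value in a library. Only percentages are tabulated, so how many calls lie behind each of them is not known here. Sham replicate 1 went against the female label. It had a value in 1224 of 1230 Y windows, against 29 to 46 in the other 13 libraries, and its median over 248 promoter windows of the X chromosome was 0.631%, against 26.9 to 32.0%. On the autosomes it did not stand apart, with a median root mean square distance to the other libraries of 0.249 (log2 ratio scale) within a range of 0.226 to 0.262. Results are therefore given without it as well where they were recomputed. Marker genes of lung cell types were also looked up. Their lowest window was under 30% for 6 of 12 alveolar, 7 of 13 endothelial, 7 of 11 mesenchymal and 1 of 10 airway markers. The share of all genes with such a window was not computed, so these counts do not check the tissue label. The lowest window of Abca3, a lipid transporter of alveolar type II cells, averaged 0.429%, that of Aqp5, a water channel of type I cells, 1.85%, and that of Flt1, an endothelial VEGF receptor, 0.374%. Surfactant gene Sftpc (lowest window 45.4%) and the pan-leucocyte gene Ptprc (65.0%) had no such window, and 0 of 23 leucocyte markers had a window under 30%.

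No autosomal window was called differentially methylated between PM and Sham offspring. To be called a differentially methylated region (DMR), a window had to differ by at least 10 points and pass an adjusted p of 0.05, and 0 of 250403 did so (0%), with or without Sham replicate 1. Without the minimum difference the count was also 0 in the limma test, with a smallest adjusted p of 0.284. At an unadjusted p under 0.05 there were 15205 windows (6.07% of those tested), of which 13086 (5.23%) were higher and 2119 (0.846%) lower in PM. With each library centred on its own median, which by construction draws the split towards even, 7167 of 13358 were higher. The 14 libraries separated completely in 216 windows (0.0863%), with 195 higher (0.0779%) and 21 lower (0.00839%) in PM.

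The mean over all windows was close in both groups. PM libraries lay between 68.7 and 70.1% with a median of 69.2%, and Sham libraries between 68.5 and 69.5% with a median of 68.9%. The groups overlapped over most of their range. The group means were 69.34% ± 0.463 and 69.02% ± 0.366 (SD, n = 7 each), a difference of 0.315 points with a 95% permutation interval of -0.171 to 0.801 (exact permutation test, 2-sided p = 0.184). Without Sham replicate 1 it was 0.317 points (exact permutation p = 0.216). A single library moved this value by over 1.5 times, since without PM replicate 1 it was 0.188. After OVA the same difference, PM-OVA minus Sham-OVA, was -0.346 points (exact permutation p = 0.199), and the difference between both contrasts was 0.660 points (exact permutation p = 0.0590).

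**Figure D1:**
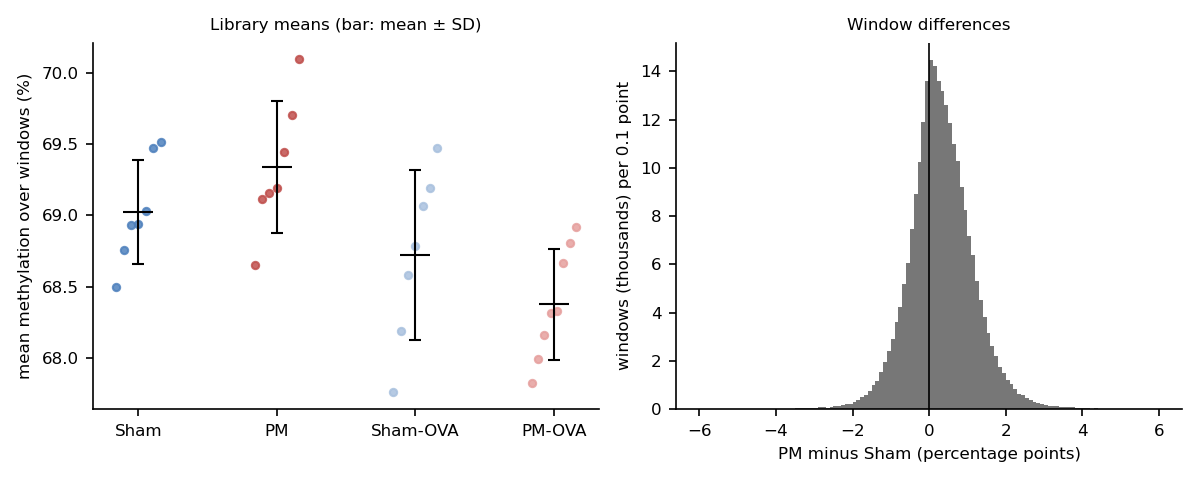
Left, mean %DNAm over the 250403 windows in each library (points) with the group mean ± SD (bars) for Sham (n = 7), PM (n = 7), Sham-OVA (n = 7) and PM-OVA (n = 8). Right, number of windows per bin of PM minus Sham difference in percentage points; the distribution is centred just above 0, with a median of 0.275 points.

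Across windows the differences were small. Their median was 0.275 points, 65.6% were positive, and 95% of them lay between -1.30 and 2.07 points. The median absolute difference was 0.527 points. A difference of at least 5 points was seen in 183 windows (0.0731%) and of at least 10 points in 16 (0.00639%), and 0 of these passed the test.

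The spread between libraries sets the size of difference that the data exclude. The 95% interval of a window's difference reached a median of 1.57 points to either side. It lay wholly within ±10 points, the size required of a DMR, for 99.9% of windows, within ±5 points for 98.2% and within ±2 points for 41.4%. For 236 windows it did not exclude 10 points, a count that may be low because variances are drawn towards those of other windows. When the intervals were widened to hold for all 250403 windows at once (Bonferroni), the median half-width was 6.02 points, and 91.8% of windows still lay within ±10 points and 17.2% within ±5 points. With all 29 libraries in 1 fit, 96.0% and 28.4% did so. Without Sham replicate 1 the median half-width was 1.64 points, 99.9% of windows lay within ±10 points, and the simultaneous shares were 88.8 and 13.5%.

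How tightly a difference was bounded depended on the level of methylation. In the 17832 windows with a mean level under 10%, which are mostly short and CpG-dense, the median half-width was 0.541 points and 95.5% of windows excluded a difference of 2 points. In the 41318 windows at 50 to 70% it was 1.98 points and 13.5% excluded 2 points, whereas in the 53407 windows at 85% and over it was 1.27 points and 64.9% did so. The windows least well bounded were those at 30 to 50%, of which 76.8% excluded 10 points in the simultaneous intervals, and those at 50 to 70%, of which 76.8% did so as well. Promoter windows, which overlap the 2000 bp upstream of a gene start, had a median half-width of 1.53 points, against 1.52 points in windows with an exon but no promoter and 1.66 points in windows with neither, and excluded 5 points in 97.8% of cases, against 98.5 and 98.1%.

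**Figure D2:**
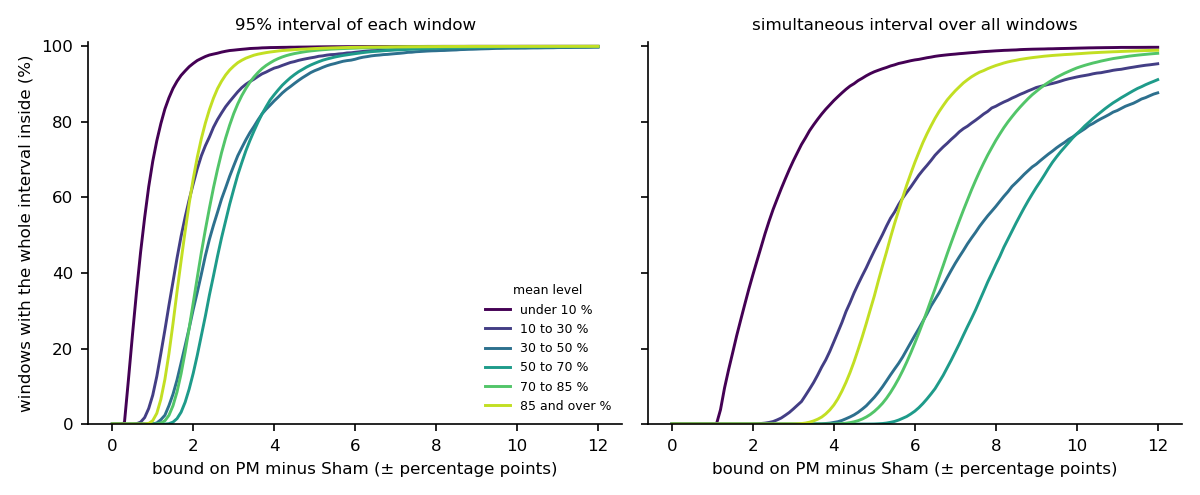
Share of windows (%) whose whole interval for PM minus Sham lies inside a bound (± percentage points), by mean level of the window over the 14 libraries. Left, 95% intervals of single windows; right, intervals that hold for all windows at once. Unmethylated windows (under 10%) are bounded most tightly and windows at 30 to 70% least.

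Grouping windows by length or level asked whether a small shift, too small for a single window, was shared by a class of windows. Windows were put into 5 classes of length, 6 of level, 3 of annotation and the 19 autosomes, and each class was compared by its mean in every library. The class means differed by 0.0147 points in windows under 10% up to 0.360 points in windows at 50 to 70%, and by 0.233 to 0.383 points between length classes. Without PM replicate 1 the class at 50 to 70% was at 0.196 points and the longest windows at 0.0876 points. For none of these 33 classes did the level differ between the groups after adjustment within each family (exact permutation tests, smallest adjusted p = 0.221), and 0 passed without Sham replicate 1. The intervals were narrow for unmethylated windows, with a difference of 0.0147 points (95% permutation interval -0.0784 to 0.102), so a mean shift beyond those bounds is excluded for them. For windows at 50 to 70% the interval ran from -0.279 to 1.01 points.

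Relative to the mean over all windows, windows of intermediate length were slightly higher in PM. Windows of 2953 to 4129 bp (n = 50098) lay 4.31 to 4.41 points above the library mean in PM (mean 4.37) and 4.26 to 4.35 points above it in Sham (mean 4.31). The groups overlapped in part, and the difference was 0.0687 points (95% permutation interval 0.0296 to 0.107, exact permutation p = 0.00466, adjusted p = 0.0175 over 5 length classes). For windows of 4130 to 5387 bp the difference was 0.0520 points (0.0149 to 0.0898, exact permutation p = 0.00699, adjusted p = 0.0175). Both remained past the threshold without Sham replicate 1, at 0.0638 and 0.0562 points (exact permutation, adjusted p = 0.0219 for both). They did not pass when the median of each class was used in place of its mean (exact permutation, adjusted p = 0.299 for both) or when p-values were adjusted over all 33 classes (adjusted p = 0.115 for both). In the OVA libraries the corresponding differences were 0.0477 and 0.0126 points (exact permutation p = 0.308 and 0.614). These relative values sum to about 0 over the classes, and the shortest and the longest windows lay at -0.0820 and -0.0694 points (exact permutation, adjusted p = 0.444 for both), with ranges of -0.140 to -0.0232 and -0.106 to -0.0167 points as each library was left out.

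Within a length class the mean difference varied with the level, and not in the same way in each class. Among windows of 2953 to 4129 bp the mean difference was 0.418 points at 50 to 70% and 0.417 points at 70 to 85%, against 0.164 points at 10 to 30%. Of the windows of 213 to 2952 bp, 35.4% were under 10%, where the mean difference was 0.0146 points, against 0.502 points at 50 to 70% and 0.326 points at 85% and over. Windows of 7508 bp and longer had another order, with 0.138 points at 30 to 50%, 0.242 points at 70 to 85% and 0.330 points at 85% and over. These values were not tested. Relative to all windows, promoter windows differed by -0.0739 points, which did not pass (exact permutation p = 0.0256, adjusted p = 0.0769) and passed without PM replicate 5, at -0.0874 points, and without Sham replicate 2, at -0.0859 points (exact permutation, adjusted p = 0.0262 and 0.0297). No chromosome departed from the others, with relative differences of -0.0215 (chromosome 7) to 0.0175 points (chromosome 11).

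**Figure D3:**
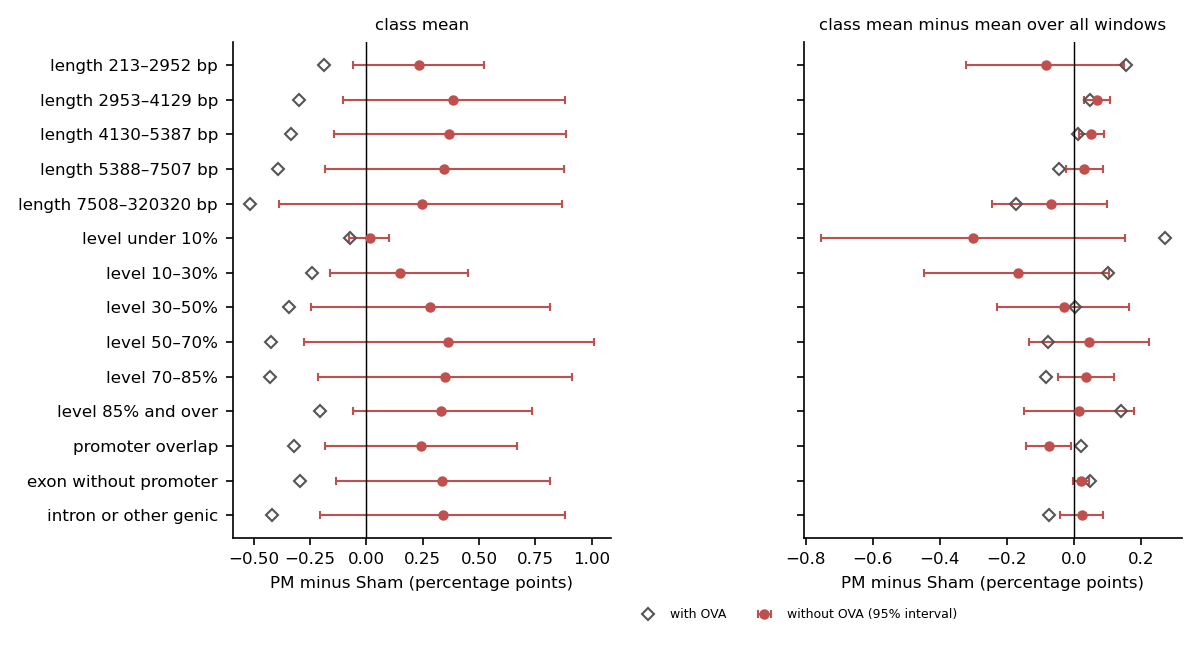
PM minus Sham difference (percentage points) of the mean over each class of windows, by length, mean level and annotation. Red points and bars are the 14 libraries without OVA with 95% permutation intervals, and open diamonds the 15 OVA libraries. Left, class means, all of whose intervals include 0; right, class means minus the mean over all windows, where the intervals of windows of 2953 to 5387 bp lie above 0 and that of promoter windows below it.

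The maternal group did not account for a share of the overall profile beyond what relabelled libraries gave. It explained 8.22% of the squared distance between libraries, against a median of 7.48% over all relabellings (exact permutation p = 0.165), and 8.87% without Sham replicate 1 (exact permutation p = 0.184). The spread within groups was also close, with a mean window variance of 0.0298 in PM and 0.0306 in Sham on the log2 ratio scale (log2 ratio -0.0394, exact permutation p = 0.767).

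The 10 windows of smallest p, taken at 1 per gene, were 9 with higher and 1 with lower methylation in PM. They are described because the test put them first, and none passed adjustment. The first was in Rpa2, which encodes a subunit of the single-stranded DNA binding protein RPA. The window (chr4:132770788-132774005, 646 bp of it exonic) ranged from 86.6 to 88.7% in PM (median 87.9%) and from 83.1 to 85.7% in Sham (median 84.4%), so the groups did not overlap. The difference was 3.36 points (95% interval 2.31 to 4.40, limma adjusted p = 0.284). Without Sham replicate 1 it was 3.22 points (limma adjusted p = 0.488). After OVA the window averaged 87.8% in PM-OVA and 87.7% in Sham-OVA.

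The second was in Grip1, which encodes a scaffold of glutamate receptors (chr10:120072790-120075299). It lay between 89.3 and 90.5% in PM (median 90.2%) and between 87.1 and 88.5% in Sham (median 87.9%), again without overlap. The difference was 2.28 points (1.44 to 3.12, limma adjusted p = 0.284), and 2.40 points without Sham replicate 1. After OVA the difference was 0.730 points (exact permutation p = 0.392).

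The only window of the 10 that was lower in PM was the CpG island at the start of Stim1, which encodes the calcium sensor of the endoplasmic reticulum (chr7:102267708-102268191, 484 bp, of which 386 bp exonic and 98 bp upstream of the gene). It was nearly unmethylated in every library, at 0 to 0.340% in PM (median 0%) and 0.458 to 3.00% in Sham (median 1.59%). The groups did not overlap, and the difference was -1.46 points (-2.15 to -0.769, limma adjusted p = 0.678), and -1.35 points without Sham replicate 1. The medians after OVA were 0% and 0.125%, with values up to 3.21% in PM-OVA.

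The other 7 were in Maml3, a coactivator of Notch signalling, Styxl1, a catalytically inactive phosphatase, Arl15, a small GTPase, Tnks2, a tankyrase, Cd109, a surface glycoprotein that binds TGF-beta, and Ccdc185 and D830044D21Rik. Their differences ranged from 2.09 points (Arl15) to 4.10 points (Tnks2), and the groups overlapped only in Tnks2. Tnks2 (chr19:36887870-36893093) ranged from 83.9 to 88.5% in PM and from 80.6 to 84.2% in Sham, with a limma adjusted p of 0.678. Over all alternatives run on the named windows, the smallest limma adjusted p was 0.161, for Tnks2 without PM replicate 7. After OVA the 10 windows had differences of -0.695 to 0.730 points, and none passed the exact permutation test (smallest adjusted p = 0.823 over 18 windows).

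**Figure D4:**
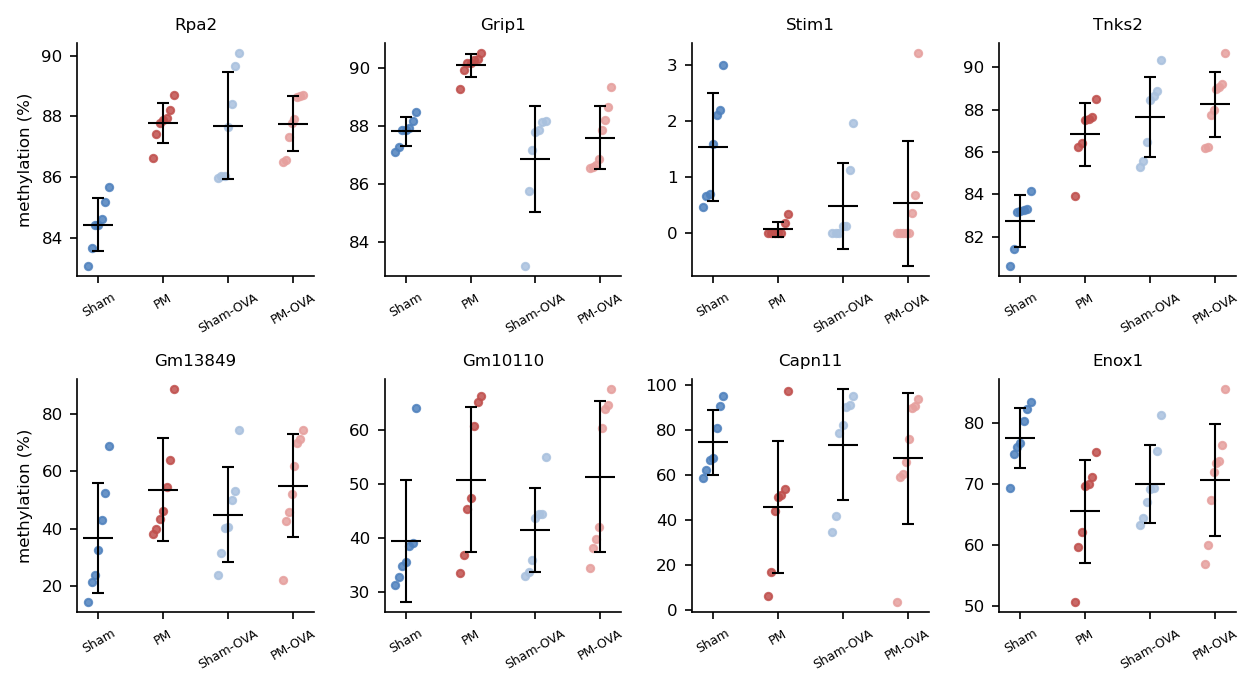
%DNAm of 8 windows in each library (points, sorted within a group) with the group mean ± SD (bars); the vertical axes differ between panels. Rpa2, Grip1, Stim1 and Tnks2 are among the windows of smallest p and Gm13849, Gm10110, Capn11 and Enox1 among those with the largest differences, where PM and Sham overlap.

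The windows with the largest mean differences were windows that varied widely between animals of the same group. The most negative difference was in Capn11, which encodes a calpain protease (chr17:45645789-45648504, no exon, wholly repeat sequence). PM libraries ranged from 6.16 to 96.96% (median 49.99%) and Sham libraries from 58.5 to 94.7% (median 67.5%). All PM libraries but replicate 1 lay below every Sham library, and replicate 1 lay above all of them. The difference was -28.8 points (-49.7 to -7.94, limma adjusted p = 0.826), and within a group the libraries had an SD of 23.0 points. The interval is narrower than that SD alone would give, because the fit draws variances towards those of other windows. Values after OVA ran from 3.68 to 93.5% in PM-OVA and from 34.7 to 95.1% in Sham-OVA, a difference of -6.08 points (exact permutation p = 0.685).

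The most positive difference was in Gm13849, a non-coding gene (chr6:31803403-31805225, without exon). PM libraries lay between 38.1 and 88.5% (median 46.2%) and Sham libraries between 14.7 and 68.8% (median 32.7%), with overlap. The difference was 16.7 points (-0.0646 to 33.5, limma adjusted p = 0.830), and 10.9 points without PM replicate 3. The adjoining window, named after its values were seen, had a difference of 15.5 points (limma adjusted p = 0.841). Both windows again had higher means in offspring of PM dams after OVA, by 10.04 and 16.9 points. Neither passed adjustment there (exact permutation p = 0.273 and 0.0443, adjusted p = 0.823 and 0.797). Further large differences were in Gm5535 (13.2 points), Gm10110 (11.3 points), BC107364 (-15.6 points) and Enox1, an ecto-NADH oxidase gene (-12.1 points). Enox1 (chr14:77298208-77302944) lay between 50.7 and 75.4% in PM and between 69.3 and 83.6% in Sham, with an interval of -18.5 to -5.74 points and a limma adjusted p of 0.738. In the OVA libraries its difference was 0.650 points (exact permutation p = 0.878).

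An SD of at least 10 points within groups was found in 46 windows (0.0184% of members), named for 42 genes, and of at least 5 points in 949 windows. These thresholds were chosen after the values were seen. The 46 windows were richer in repeats, with a median of 73.6% repeat sequence against 22.3% in all windows, and 12 of the 46 were wholly repeat sequence against 0.620% of all windows. Rnf157, a ubiquitin ligase gene whose window was among the 4 most variable when 1 was taken per gene, ranged from 62.9 to 97.8% in PM and from 43.3 to 94.5% in Sham. The same windows varied in the OVA libraries, where 44 of the 46 had an SD of at least 5 points and 30 of at least 10 points. Over all windows, 55 (0.0220%) had an SD of at least 10 points there. The 46 windows did not lean to either group, since 25 were higher and 21 lower in PM, and the SD was larger in PM in 23. Their 95% intervals reached 9.18 to 20.9 points to either side (median 10.8). The fit draws variances towards those of other windows, so these intervals are narrower than the windows' own SDs would give. Even so, most of them do not exclude a difference of 10 points.

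The windows that differed most without OVA were looked up in the OVA libraries. Of the 100 windows of smallest p, 44 had the same sign in PM-OVA minus Sham-OVA, and of the 100 with the largest differences 57 did, against 44.8% of all windows. Relative to the median difference of each contrast these became 54, 58 and 48.4%. Of the 216 windows without overlap, 33.8% had the same sign, or 42.6% relative to the medians. The median absolute difference of the first 100 windows was 2.74 points without OVA and 0.600 points with it, against 0.527 and 0.542 points over all windows. For the 100 windows with the largest differences it was 6.86 points without OVA and 2.46 points with it, and their median difference after OVA, signed by the direction without OVA and relative to each contrast's median, was 0.610 points, against 0.0342 points for the 100 of smallest p and -0.0303 points for all windows. These counts describe neighbouring and correlated windows and were not tested.

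By gene, the mean over each gene's windows was compared in the same way. For 36013 genes 0 passed adjustment (0%), with a smallest limma adjusted p of 0.449, and 2362 had an unadjusted p under 0.05 (6.56%), 2144 higher (5.95%) and 218 lower (0.605%) in PM. With each library centred the split was 1058 higher of 2003. The median gene difference was 0.280 points, and 95% of genes lay between -1.03 and 1.61 points. The 95% interval excluded a difference of 5 points for 98.6% of genes and of 2 points for 72.0%, or for 94.2% of genes with at least 3 windows. The 14 libraries separated completely in 31 genes (0.0861%), 30 of them higher (0.0833%) and 1 lower (0.00278%) in PM. Among genes with at least 3 windows, 18 were higher without overlap (0.0984%) and 0 lower (0%). Without PM replicate 5 the unadjusted count was 3567, over 1.5 times larger, and without Sham replicate 1 it was 2157.

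Among genes with at least 3 windows, the 6 of smallest p were Gm16271, Clca3a1, Fbxw28, Fam3b, Hormad1 and Klhdc7b, with differences of 1.18 to 2.26 points (limma adjusted p = 0.449 to 0.547). Clca3a1 belongs to the calcium-activated chloride channel regulators, a family whose member Clca1 is a product of mucus-secreting goblet cells. Its mean over 6 windows ranged from 78.5 to 79.6% in PM (median 79.2%) and from 77.6 to 78.5% in Sham (median 78.0%). The groups did not overlap, and the difference was 1.18 points (0.633 to 1.72, limma adjusted p = 0.449), and 1.17 points without Sham replicate 1. In the OVA libraries the order was the opposite, with 77.2 to 79.2% in PM-OVA and 78.7 to 80.7% in Sham-OVA, a difference of -1.21 points (exact permutation p = 0.00699). That p was not adjusted over the 27 named genes, and the difference between the contrasts was not tested. Fam3b encodes a secreted cytokine-like protein and Hormad1 a protein of meiotic chromosomes.

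Of all listed genes, the smallest p was that of Cyp1a1 in the aryl hydrocarbon receptor list, which encodes the P450 enzyme that oxidises polycyclic aromatic hydrocarbons. Its mean over 4 windows lay between 58.7 and 60.5% in PM (median 59.7%) and between 57.4 and 58.5% in Sham (median 58.2%). All PM libraries lay above all Sham libraries, and the group means were 59.6% ± 0.640 and 58.0% ± 0.501 (SD, n = 7 each). The difference was 1.60 points (0.889 to 2.31, limma adjusted p = 0.547), 1.55 points without Sham replicate 1 and 1.32 points with each library centred (limma adjusted p = 0.850). In the OVA libraries it was -0.0587 points (exact permutation p = 0.863), where the libraries lay between 58.1 and 60.4%.

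All 4 windows of Cyp1a1 had higher means in PM. The gene has 2 annotated starts, and the promoter shown above belongs to the downstream one. The window before that promoter (chr9:57693234-57696843) held no exon and lay in an intron of the longer transcript. It had the lowest level, at 27.9% ± 2.00 in PM and 26.1% ± 0.849 in Sham, a difference of 1.78 points (limma adjusted p = 0.827). It held the response element core 11 times, a count that 0.625% of 3999 chromosome 9 windows of like length reached. For the other 3 Cyp1a1 windows that share was 23.9, 72.1 and 43.9%. The window over the downstream start (chr9:57696845-57700719) held the core 2 times and differed by 1.90 points, from 52.5 to 54.4%. The outer windows differed by 0.968 and 1.76 points.

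Of the 9 measured genes of the aryl hydrocarbon receptor list, 2 had an unadjusted p under 0.05, both higher in PM, against 6.56% of all genes (5.95% higher), and the median difference was 0.480 points against 0.280 points over all genes. After centring, 1 gene, Cyp1a1, was under that threshold and the median was 0.194 points. The second of the uncentred genes was Tiparp, a receptor-induced ADP-ribosyltransferase that represses the receptor, named after its value was seen (66.4 against 65.3%, 1.07 points, limma adjusted p = 0.752). The receptor gene Ahr itself lay at 48.2% in PM and 47.9% in Sham (0.251 points, -1.22 to 1.72), its repressor Ahrr differed by 0.383 points and Cyp1b1 by 0.480 points. In the Nrf2 list, 1 of 15 genes had an unadjusted p under 0.05, higher in PM, a share near the 6.56% of all genes, and the median was 0.0936 points. When every library was centred the median was -0.192 points, 7 of 15 were positive and the gene under that threshold was Nqo1. Uncentred it was Hmox1, encoding haem oxygenase, at 63.6 against 62.8% (0.799 points, 0.133 to 1.47, limma adjusted p = 0.752). The quinone reductase gene Nqo1 had the largest difference, 1.02 points (-0.0700 to 2.12), and Nfe2l2, which encodes Nrf2, differed by 0.462 points. For 0 genes of these 2 lists did the interval reach 3 points, the farthest bounds being 2.31 and 2.12 points.

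Genes that write and erase methylation were tightly bounded. All 9 had a positive difference, as had 73.4% of all genes, with a median of 0.339 points, and after centring 6 of 9 were positive. The de novo methyltransferase gene Dnmt3a, with 34 windows, ranged from 57.3 to 59.0% in PM and from 57.2 to 58.1% in Sham (0.603 points, limma adjusted p = 0.752). The maintenance methyltransferase gene Dnmt1 differed by 0.349 points, the cofactor gene Dnmt3l by 0.626 points (0.348 points without Sham replicate 3), and Tet1, Tet2 and Tet3 by 0.283 to 0.432 points. At 0 of these 9 genes did an interval reach 1.80 points.

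Among 22 type 2 immunity genes, 1 had an unadjusted p under 0.05, against 6.56% of all genes, and the median was 0.330 points. That gene was Ccl11, the eosinophil chemoattractant eotaxin, whose single window lay between 77.5 and 79.2% in PM and 76.3 and 79.0% in Sham (1.04 points, limma adjusted p = 0.752). The cytokine genes Il5, Il4 and Il13 differed by 1.09, 0.436 and 0.0801 points, and the interval of Il5, which drives eosinophil growth, ran from -0.288 to 2.46. Inflammation and airway remodelling genes had 0 of 17 under that threshold, against the same 6.56%. Their median was 0.326 points.

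Of 17 lung developmental transcription factor genes, 2 had an unadjusted p under 0.05, both higher in PM, against 6.56% of all genes (5.95% higher), with a list median of 0.117 points. After centring each library the median was -0.169 points, 5 of 17 were positive and 1 gene, Tbx5, had an unadjusted p under 0.05. Hopx, a homeodomain gene active in alveolar type I cells, lay between 53.6 and 55.1% in PM (median 54.2%) and between 52.2 and 54.0% in Sham (median 52.6%), a difference of 1.28 points (0.525 to 2.04, limma adjusted p = 0.752). Tbx5, a T-box gene of lung mesenchyme, lay at 46.3 against 44.9% (1.44 points, 0.449 to 2.43, limma adjusted p = 0.752). The lung and thyroid factor gene Nkx2-1 was unmethylated, at 2.00 and 1.96%. Imprinted genes had 0 of 24 under the threshold, against 6.56% of all genes, and a median of 0.216 points. Meg3, a maternally expressed non-coding RNA, differed by -0.697 points (limma adjusted p = 0.752) and Mest, a paternally expressed hydrolase gene, by 1.01 points (limma adjusted p = 0.788), or 0.603 points without Sham replicate 2. With each library centred, Meg3 differed by -0.983 points (limma adjusted p = 0.811). H19 was the least well bounded, at 0.708 points with an interval of -3.04 to 4.46.

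**Figure D5:**
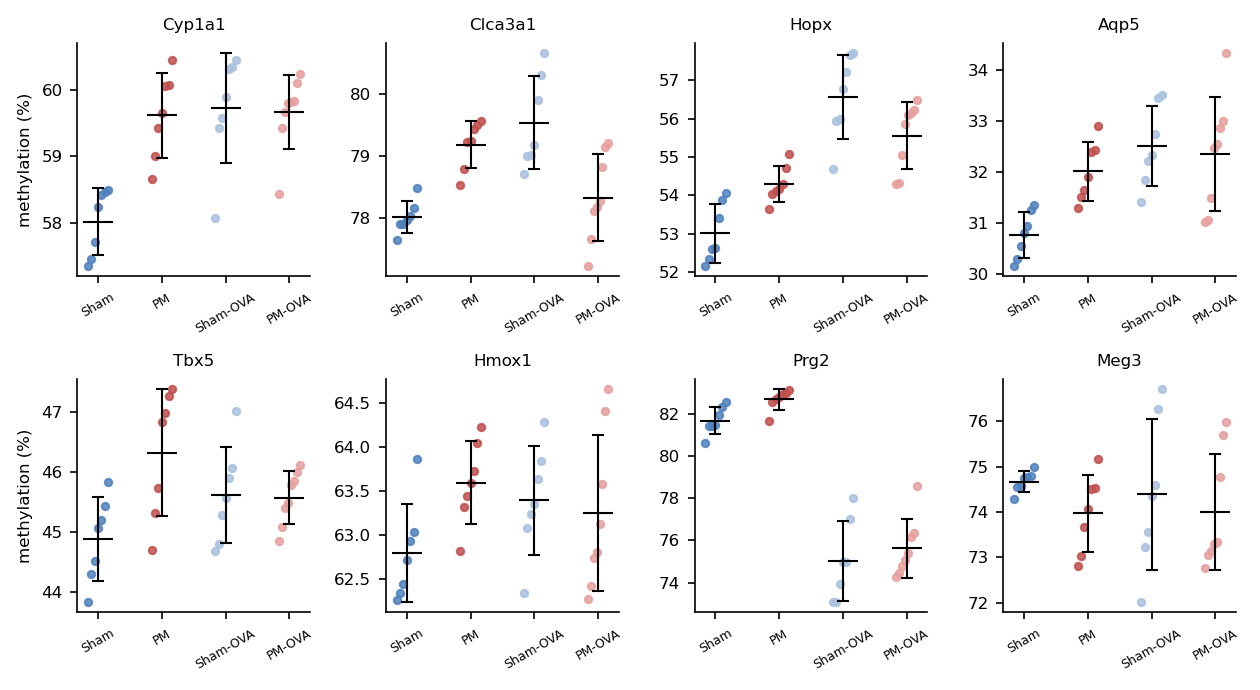
Mean %DNAm over the windows of 8 named genes in each library (points, sorted within a group) with the group mean ± SD (bars); the vertical axes differ between panels. Cyp1a1 and Clca3a1 show no overlap between PM and Sham, whereas the other 6 overlap.

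Positive differences were found for 10 of 12 alveolar, 9 of 10 airway, 11 of 13 endothelial, 9 of 11 mesenchymal and 19 of 23 leucocyte markers, and for 73.4% of all genes. With each library centred these counts were 8, 4, 10, 6 and 15, and the share of all genes 49.4%. Fewer cells of a type and a changed level within those cells cannot be told apart in tissue DNA. In these lists 1, 0, 1, 1 and 3 markers had an unadjusted p under 0.05, all higher in PM, against 6.56% of all genes (5.95% higher). With each library centred these became 2, 0, 0, 1 and 1, all higher in PM, against 1058 higher and 945 lower of all 36013 genes. Relative to all windows, the mean over the 250 windows of endothelial markers lay between -1.40 and -0.167 points in PM and between -1.16 and -0.665 points in Sham, a difference of 0.280 points. The leucocyte markers lay between 3.78 and 4.39 points in PM and between 3.94 and 4.26 points in Sham, a difference of -0.00696 points. For the other marker lists the relative difference was 0.149 (alveolar), 0.0306 (airway) and 0.109 points (mesenchymal), and the groups overlapped in all of them. The part of cell composition in these values was not tested.

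The marker with the smallest p was Aqp5. It lay between 31.3 and 32.9% in PM (median 31.9%) and between 30.2 and 31.4% in Sham (median 30.8%), a difference of 1.245 points (0.620 to 1.87, limma adjusted p = 0.672) with a slight overlap. The eosinophil granule gene Prg2 lay at 82.7 against 81.7% (1.01 points, limma adjusted p = 0.752), whereas Epx, the other eosinophil granule gene named here, differed by -0.0354 points. The endothelial genes Vwf, encoding von Willebrand factor, and Cdh5, encoding VE-cadherin, differed by 0.598 and 1.21 points, the matrix gene Fn1 by 0.676 points and the pericyte receptor gene Pdgfrb by 0.741 points. Without PM replicate 1 the Cdh5 difference was 0.805 points, and without PM replicate 4 the Pdgfrb difference was 0.458 points. The ciliated cell factor gene Foxj1, the basal cell keratin gene Krt5 and the neutrophil gene S100a9 differed by 0.905, 1.11 and 1.37 points, and none of these passed in the limma test (adjusted p = 0.752 to 0.807). Krt5 was at 0.707 points without PM replicate 4 and S100a9 at 0.845 points without Sham replicate 7. S100a8, which encodes the partner of S100a9, differed by -0.142 points. With each library centred, 7 of the 177 listed genes were higher and 2 lower in PM at an unadjusted p under 0.05, against 1058 and 945 of all 36013 genes, and 0 passed adjustment.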

How the data were processed

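Whole-genome methyl-sequencing (WGMS) with enzymatic conversion was analysed for 14 of 29 libraries, with 15 OVA libraries for comparison. Per the study's methods and the submitters' processing notes, the authors used Trim Galore for trimming and DRAGEN for mapping (GRCm38) and methylation calls, and SeqMonk to bin calls into windows of neighbouring CpGs. The deposited table used here holds 1 percent value per window and library. Replicates were not pooled, no normalisation of these percentages is described, and read counts were not analysed here, so the precision rests on the number of libraries.

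For testing, the methylated over the unmethylated percentage of each window, both raised by 1 point, was put on a log2 scale and tested with limma (version 3.58.1, R 4.3.3), 2-sided, with Benjamini-Hochberg adjustment over all windows or all genes. Intervals for differences came from limma on the percent scale. It draws the variance of a window towards that of others, so intervals of the most variable windows are narrower than their own SDs would give. Single values per library were compared by exact permutation of the maternal label (3432 relabellings, smallest p 0.000583). Length classes were 5 groups of near-equal size, and level classes used the mean over the 14 libraries. Annotation came from GENCODE M21, and sequences and repeat masking from RefSeq GRCm38.p6. The fit was tested on simulated data. Python 3.11.15, numpy 2.4.6, pandas 2.3.3, scipy 1.17.1 and matplotlib 3.10.9 were used.

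Windows were named for the 10 smallest p, the 3 largest rises and falls and the 4 largest SDs (1 window per gene), and genes for the 6 smallest p among those with at least 3 windows and, in each of 12 lists, the smallest p and the largest difference. A gene that this rule names is not reported here. The members, lists and rules were chosen with earlier results of these data known. Alternatives covered the scale, offset, centring, chromosomes, libraries in the fit, thresholds, a replicate block and each library left out in turn. X, Y and mitochondrial windows (8270, 1230 and 5) and 778 autosomal windows lacking a value were left out of the tests.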

Additional observations from a re-analysis of the deposited data

Results flagged for a closer look

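In 92 groups of 7 libraries checked for a library far from the others by Dixon's criterion, 5 were marked, where chance marks about 1 in 20. They were the lowest PM library of the Arl15 window (92.8%), the highest Sham library of the Gm10110 window (64.2%), the highest PM library of the BC107364 window (80.1%), the highest Sham library of Ccl11 (79.0%) and the lowest PM library of Prg2 (81.7%).

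Outside the autosomes, Sham replicate 1 had a value in 1224 of 1230 Y windows, and its median over 248 X promoter windows was 0.631%, which differ from the other 13 libraries and from the female label. The counts of windows without overlap and the gene list counts were not recomputed without it.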

How the results depend on the processing

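Under every alternative run, 0 windows and 0 genes passed adjustment. The smallest limma adjusted p was 0.161 for the 18 named windows and 0.204 for the 27 named genes. Over all windows and genes the smallest were 0.0748 (all 29 libraries in 1 fit) and 0.201 (without Sham replicate 2). The named windows and genes kept the sign of their difference, which was largely fixed in advance. A change of scale, offset, block or libraries added to the fit leaves a difference the same by construction. Windows and genes without overlap also could not change sign with 1 library left out. Leaving out each library gave 12526 to 18578 windows and 1728 to 3567 genes at an unadjusted p under 0.05, with a mean difference of 0.188 to 0.428 points. Same-numbered PM and Sham libraries had weak correlations of their deviations (-0.00209 to 0.0421, with the own number best for 3 of 7). Whether the numbers pair the libraries was not tested. With a replicate block the counts were 16416 windows and 2815 genes, against 15205 and 2362 without it. The mean difference stayed at 0.315 points by construction (exact sign-flip p = 0.125, against an exact permutation p of 0.184). Of the 18289 genes with at least 3 windows, 1598 were under that threshold, 1563 of them higher in PM. Centring gave 53.7% higher windows and 52.8% higher genes at an unadjusted p under 0.05, against 86.1 and 90.8%.

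The length classes passing adjustment numbered 2 with each library left out, and 0 with class medians or adjustment over 33 classes (the latter chosen after seeing the data). The annotation classes passing numbered 0 to 1. The log2 ratio of spread was 0.00379 on the percent scale and -0.108 to 0.0255 with each library left out, so its sign is not settled. The mean difference in OVA libraries was -0.346 points, a comparison added after seeing the data. The median half-width was 1.61 points with all 29 libraries, 1.51 centred and 1.62 to 1.67 with each library left out. The share within 10 points was 99.9% under all of these (99.88 to 99.90% with each library left out), and within 5 points 98.1% with all 29 libraries, 98.6% centred and 97.7 to 98.2% otherwise. Windows with the largest differences shared their sign after OVA in 57 of 100.

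Class differences near 0 changed sign. With each library left out, the class under 10% ranged from -0.00241 (without PM replicate 4) to 0.0462 points. Relative to all windows, the class at 30 to 50% ranged from -0.0813 to 0.0130 points, being positive without Sham replicates 4 (0.00573) and 7 (0.0130). The class at 85% and over was -0.0201 points with medians and ranged up to 0.0498 points, being -0.0120, -0.000121 and -0.00315 points without PM replicates 5, 6 and 7, and -0.0268 and -0.00458 points without Sham replicates 4 and 7. The causes were not tested. With 7 libraries a group there was a median simultaneous interval of 6.02 points to either side for a window. The number of calls behind each value is not tabulated, so the part of depth was not tested.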
